A study of Mus musculus with 8 samples.

Results

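The eIF4G proteins are the scaffolds on which translation initiation is assembled, and 3 mouse genes encode them: Eif4g1, Eif4g2 and Eif4g3. Their transcripts were followed here through 4 lists of N6-methyladenosine (m6A) peaks from RAW264.7 cells, a transformed mouse macrophage line. The genes were chosen by name after their peaks in these lists were known, so the numbers and ranks of their peaks are a description and carry no test. A peak was counted for the gene that held it, even where the authors' nearest-gene column names a neighbour. All peaks of the 3 genes lie on the strand of their gene. By this rule the 3 genes held 49 of the 20732 deposited peaks, and they are 3 of the 4305 genes that held at least 1 peak.

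The control cells had no treatment in the labels, which name no vehicle. The other cells were exposed for 24 h to TBP, TCP or TIP, each at 100 µM; the labels do not spell these abbreviations out. RNA pulled down with an anti-m6A antibody was sequenced (MeRIP-seq), and each condition has 1 immunoprecipitated library, whose peak list is used, and 1 input library, not used here. Without replicate libraries no p-value is given, and differences between lists cannot be told apart from differences between single cultures or libraries.

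eIF4G1 joins the cap-binding protein eIF4E, the helicase eIF4A, the ribosome-recruiting complex eIF3 and the poly(A)-binding protein, and so brings the small ribosomal subunit to a capped mRNA. eIF4G3, also called eIF4GII, is a close paralogue with the same binding partners. eIF4G2, also called DAP5 or p97, lacks the part that binds eIF4E and serves in cap-independent initiation. m6A is a methyl mark on adenosines inside mRNA, placed by the METTL3-METTL14 complex, and is typically dense near stop codons and in 3′ UTRs. It is read by proteins that affect the stability and translation of the transcript.

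There were 4432 control peaks, held by 2473 genes, 6285 of TBP by 3124, 6981 of TCP by 3394 and 3034 of TIP by 1788. No read counts come with them, which leaves the depth of each peak unknown, and a missing peak means only that none was called there. Each peak has 1 score from the authors, with no stated scale and a different lowest value in each list. It is used here only as a rank within a list, where rank 1 is the highest score and tied peaks share the best rank. The median width was 50 bp in every list. Of 8 macrophage marker genes, 6 had a peak somewhere, Itgam and Adgre1 had none, and 0 of 15 markers of T cells, B cells, epithelium and fibroblasts had one. Coordinates are on GRCm38 (mm10).

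All 3 genes had a peak in all 4 lists, as did 29.7% of the 4305 genes. The numbers of peaks differed in a different way for each gene. Eif4g1 had 6 peaks in each of control, TCP and TIP and 4 in TBP. Eif4g2 had 1 peak in control, as in TBP, while TCP had 3 and TIP 5, so the shortest list held the most, as it did for 2.44% of all 4305 genes. Eif4g3 had 3 peaks in control, while TBP had 8, TCP 5 and TIP 1, and TBP held the most for 20.8% of those genes.

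Read against list length, Eif4g1 held 1.35 of every 1000 control peaks, and 0.636, 0.859 and 1.98 per 1000 with TBP, TCP and TIP. Eif4g2 held 0.226 per 1000 control peaks, and 0.159, 0.430 and 1.65 with the compounds in the same order. Eif4g3 held 0.677 per 1000 control peaks, and 1.27, 0.716 and 0.330 with the compounds. Most genes had few peaks, with a median of 1 per gene in each list. As many as the 6 control peaks of Eif4g1 were held by 2.43% of the control genes, as many as the 8 TBP peaks of Eif4g3 by 1.73% of the TBP genes, and as many as the 5 TIP peaks of Eif4g2 by 4.36% of the TIP genes.

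**Figure D1:**
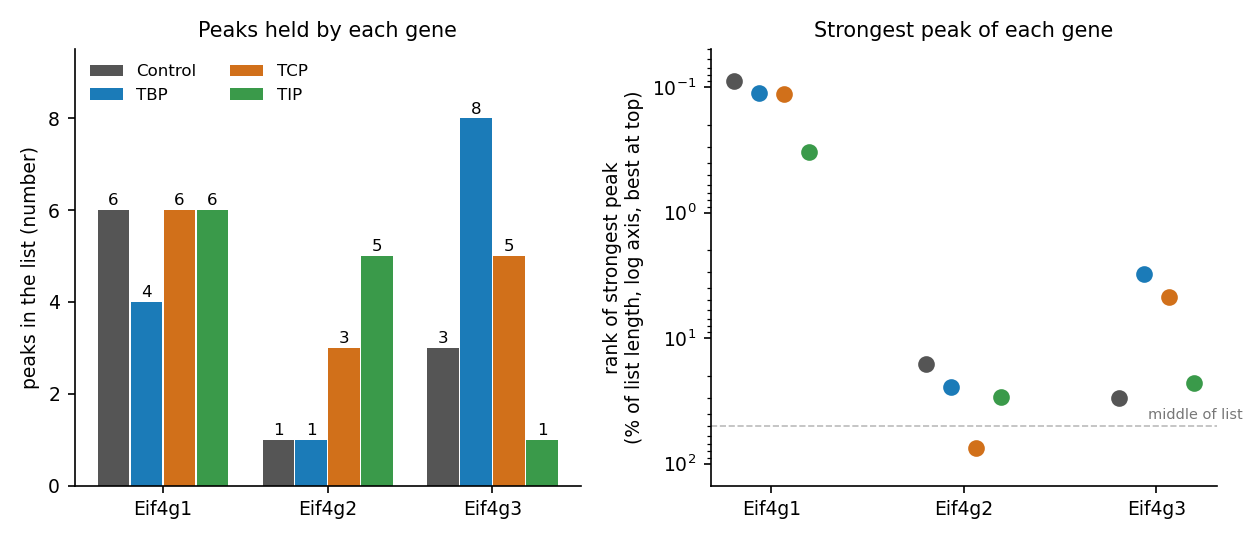
Left, number of peaks held by each gene in each of the 4 lists (bars, 1 library per condition, no error). Right, rank of the gene's strongest peak as a percentage of list length on a log axis with the best rank at the top. Eif4g1 stays between 0.0903% and 0.330% in every list, while Eif4g2 lies between 16.0% and 74.9%.

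Of the 3 genes, Eif4g3 had at least 2 more peaks in TBP than in control, as did 14.9% of all genes with a peak in either list, and Eif4g1 had 2 fewer, as did 2.14%. In TCP, Eif4g2 and Eif4g3 each had 2 more peaks than in control, against 18.0% of all genes. In TIP, Eif4g2 had 4 more peaks; 2.39% of all genes had at least 2 more and 0.25% at least 4 more. Eif4g3 had 2 fewer in TIP, where 12.3% of all genes had at least 2 fewer. The 3 comparisons share the control library. With lists of about equal length, the 3034 best-scored peaks of each with ties kept (3290 in control, 3085 in TBP, 3094 in TCP), Eif4g3 had 2 peaks each in control, TBP and TCP and 1 in TIP. Under the same limit Eif4g2 kept 1 control peak, 1, 0 and 5 with TBP, TCP and TIP, and Eif4g1 kept 5 control peaks and 1, 1 and 6.

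Eif4g1 (gene ID 208643) lies on the plus strand of chromosome 16, 20672720 to 20692883. Its strongest peak was the same 3′ UTR site in every list and stood among the highest of all peaks. In control it spanned 275 bp (20692285 to 20692559) and ranked 4 of 4432, tied with 1 other control peak of the same score. In TBP it spanned 225 bp (20692310 to 20692534) and ranked 7 of 6285. In TCP it spanned 175 bp (20692310 to 20692484) and ranked 8 of 6981.

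In TIP the same stretch held a pair of peaks. The larger spanned 175 bp (20692385 to 20692559) and ranked 10 of 3034, and the other, of 25 bp (20692335 to 20692359), ranked 1959. The bases 20692385 to 20692484, 100 bp, were shared by the 4 main peaks. The control site ends 324 bp before the RefSeq end of the gene. By its strongest peak Eif4g1 was gene 4 of 2473 in control, 6 of 3124 in TBP, 7 of 3394 in TCP and 9 of 1788 in TIP.

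The lists name this site for a neighbouring gene. The next gene, Fam131a, starts 534 bp after the site in RefSeq, and 6 Eif4g1 peaks carry its name in the nearest-gene column. Another 3 exon peaks carry the name of Snord66, a small nucleolar RNA gene nested in Eif4g1. Read by that column alone, the best rank of Eif4g1 would be 1698 in control, and 4234, 3095 and 834 with TBP, TCP and TIP.

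Recurrence of so strong a site was usual in these lists. Of the 46 control peaks in the best 1% by rank, 34 lay in a site seen in all 4 lists, 73.9% (exact Clopper-Pearson 95% interval 58.9 to 85.7, counting error only). Of the 2130 control peaks below the middle rank, 11.7% did (10.4 to 13.2). Of the 1279 genes with a peak in all 4 lists, 48.2% had their strongest peaks of all 4 lists in 1 site. Eif4g1 was among them, and Eif4g2 and Eif4g3 were not.

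Upstream of this site, Eif4g1 carried 16 weaker peaks over 6838 bp (20679342 to 20686179), 5 from control, 3 from TBP and 4 each from TCP and TIP. Not 1 of these 16 overlapped a peak of another list. Among all peaks not annotated to a 3′ UTR, 36.6% overlapped no peak of another list. That share covers peaks of every rank and is not matched to these weaker peaks, and low-ranked control peaks recurred less often. The Eif4g1 peaks ranked between 1698 and 3772 in control, between 4234 and 5377 in TBP, between 3095 and 5932 in TCP and between 834 and 1373 in TIP.

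Several of these peaks nevertheless lay side by side. The control peak at 20679342 to 20679366 ended at the base before the TIP peak at 20679367 to 20679441. Both are annotated to a 5′ UTR, although they lie 6622 bp and 6647 bp from the RefSeq start of the gene and just before peaks in exon 10 of 33. In exon 10, the control peak at 20679542 to 20679566 abutted the TIP peak at 20679567 to 20679641, and a TBP peak followed at 20679742 to 20679766. In exon 15, the control peak at 20681773 to 20681797 abutted the TIP peak at 20681798 to 20681847, and a TCP peak followed at 20681898 to 20681922.

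In each list 97.1% to 98.2% of widths were multiples of 25 bp, and calls on such a grid can meet without sharing a base. For Eif4g1, 6 of 22 peaks abutted a peak of another list without overlapping one, in 3 pairs that each joined control and TIP. Over all peaks 7.52% abutted in this way. When abutting peaks were joined, a choice made after the data were seen, the Eif4g1 sites in 2 or more lists went from 1 to 4.

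The remaining upstream peaks stood in exons 11 to 24. Control had a 163 bp peak in exon 11 (20680729 to 20680891) and a 75 bp peak in exon 22 (20685515 to 20685589). TBP had 25 bp peaks in exons 20 (20684044 to 20684068) and 24 (20686155 to 20686179). TCP had 25 bp peaks in exons 12, 18 and 21, and TIP had a 50 bp peak in exon 18 (20683548 to 20683597), 100 bp from that of TCP. TCP also had a second 3′ UTR peak of 50 bp (20692710 to 20692759), which ended 124 bp before the end of the gene and ranked 3744.

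**Figure D2:**
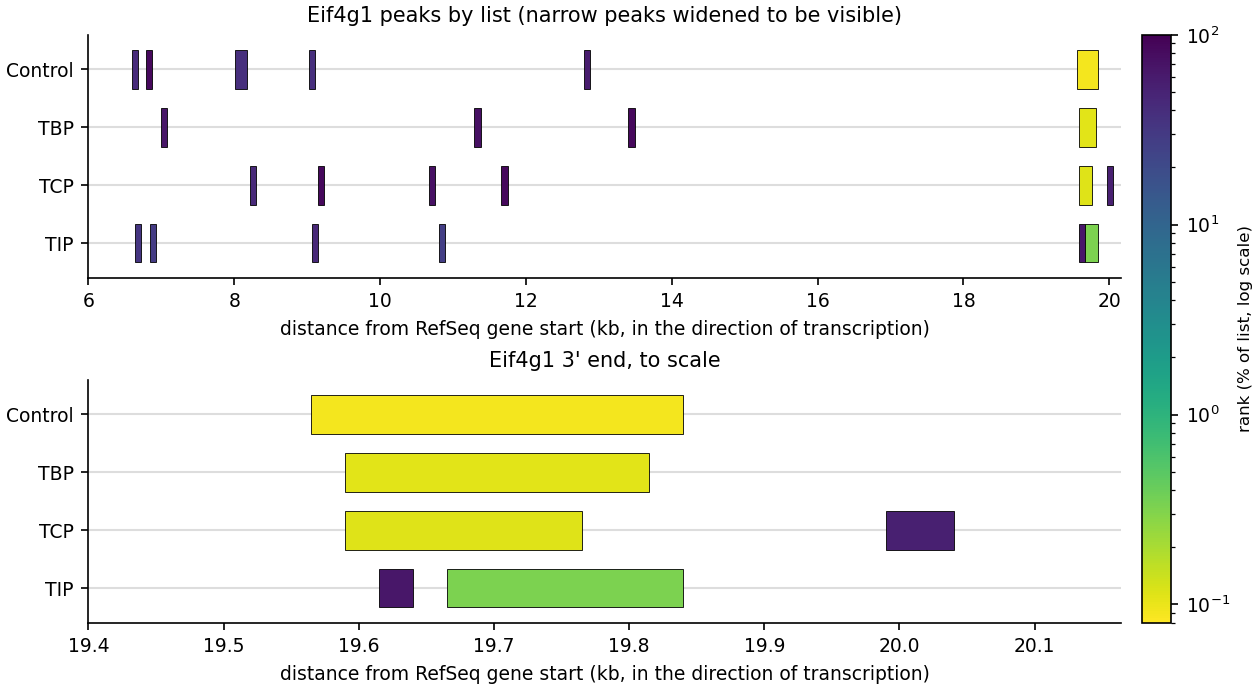
Peaks of Eif4g1 in each list against distance from the RefSeq gene start in kb, coloured by rank as a percentage of list length (log colour scale, light is best). The upper panel shows all 22 peaks, the lower the 3′ end to scale, where the 4 main peaks share 100 bp.

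Eif4g2 (gene ID 13690) lies on the minus strand of chromosome 7, 111067985 to 111083030, and had no site seen in more than 2 lists. Control and TBP each had a single peak, both in exon 4 of 22. The control peak spanned 25 bp (111080246 to 111080270) and ranked 708 of 4432. The TBP peak spanned 50 bp (111080221 to 111080270), covered all of the control peak and ranked 1556 of 6285. No peak was called in exon 4 in TCP or TIP.

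In TIP the peaks of Eif4g2 lay together in the middle and 3′ part of the gene, over 3020 bp (111072675 to 111075694). They fell in exons 15, 16, 18 and 19 of 22 and in the 3′ UTR. The best ranked, in exon 18 (111074680 to 111074754, 75 bp), stood at 890 of 3034, 1 of 56 tied peaks. The 3′ UTR peak (111072675 to 111072749, 75 bp) ranked 1104, and the peaks in exons 16, 15 and 19 ranked 1281, 2449 and 2704. In the same stretch control had 0 peaks, TBP 0 and TCP 1.

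The TCP peaks of Eif4g2 were 25 bp each and low in the list. They lay in the 5′ UTR (111081584 to 111081608, rank 5229 of 6981), in exon 17 (111075080 to 111075104, rank 5932) and in the 3′ UTR (111071325 to 111071349, rank 5932). None overlapped a peak of another list, as was so for 34.4% of all peaks. That share covers peaks of every rank and is not matched to these low-ranked peaks. The nearest TIP peak was 245 bp from the exon 17 peak. At equal list length none of the 3 was kept.

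**Figure D3:**
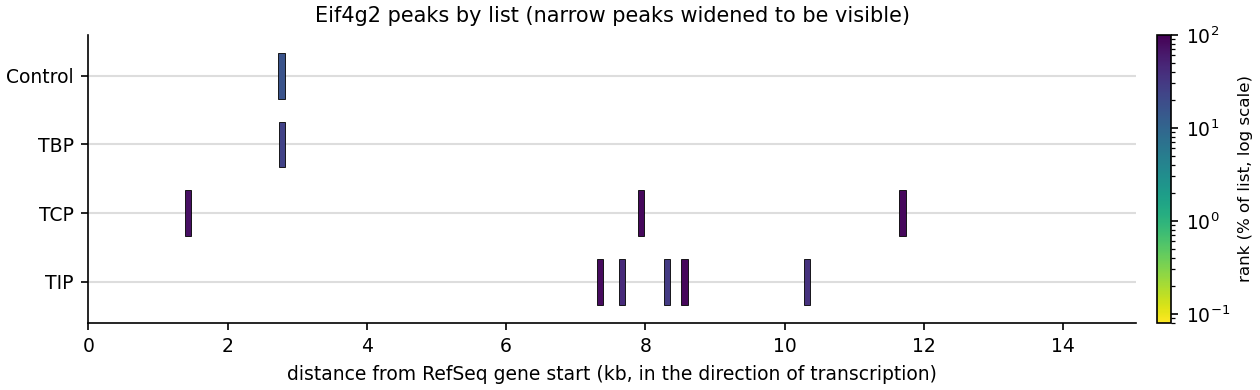
Peaks of Eif4g2 in each list against distance from the RefSeq gene start in kb, coloured by rank as a percentage of list length (log colour scale). Control and TBP share 1 position in exon 4, and the 5 TIP peaks lie further along the gene.

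Eif4g3 (gene ID 230861) spans 215308 bp on the plus strand of chromosome 4, 137991779 to 138207086. Its peaks fell in 2 main places, an internal exon and the 3′ UTR. The exon, number 12 of 13 in the transcript the authors' annotation uses there, held peaks of all 4 lists within 425 bp (138126121 to 138126545). The lists name all 6 of them for 1700095J12Rik, a long non-coding RNA gene within the span of Eif4g3 on the other strand.

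The compounds had their strongest Eif4g3 peak at this exon. It spanned 100 bp in TBP (138126171 to 138126270) and ranked 193 of 6285. In TCP it spanned 150 bp (138126121 to 138126270) and ranked 329 of 6981, and in TIP it spanned 50 bp (138126171 to 138126220) and ranked 688 of 3034. These 3 peaks shared the 50 bp from 138126171 to 138126220.

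The control peak of the exon lay directly after them, at 138126271 to 138126320, without a shared base, and ranked 1328 of 4432. A 25 bp TBP peak (138126296 to 138126320, rank 5377) lay inside it. TBP had another 25 bp peak at 138126521 to 138126545, rank 4741. With at least 1 bp of overlap the compounds' site was thus seen in 3 lists and the control site in control and TBP, and with abutting peaks joined they formed 1 site seen in all 4.

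The 3′ UTR of Eif4g3 held 2 control peaks, 3 of TBP, 4 of TCP and 0 of TIP, over 875 bp (138206146 to 138207020). The better control peak (138206271 to 138206345, 75 bp) also ranked 1328, level with the exon peak, and a 25 bp TBP peak lay inside it. A TCP peak of 100 bp (138206346 to 138206445, rank 1774) and a TBP peak of 75 bp (138206371 to 138206445, rank 2789) overlapped each other next to it. Control and TCP shared a peak with the same borders, 138206496 to 138206545, which ranked 3291 in control and 5932 in TCP. The last TCP peaks lay at 138206821 to 138206845 and 138206971 to 138207020, the second ending 66 bp before the end of the gene.

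TBP alone had peaks annotated to exons 19 and 21 of 34. The first spanned 1331 bp of genome (138171258 to 138172588) and ranked 3423, and the second 25 bp (138175884 to 138175908, rank 5377). Covered length in TBP was 1656 bp with the wide peak and 325 bp without it, against 175 bp in control, 375 bp in TCP and 50 bp in TIP.

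**Figure D4:**
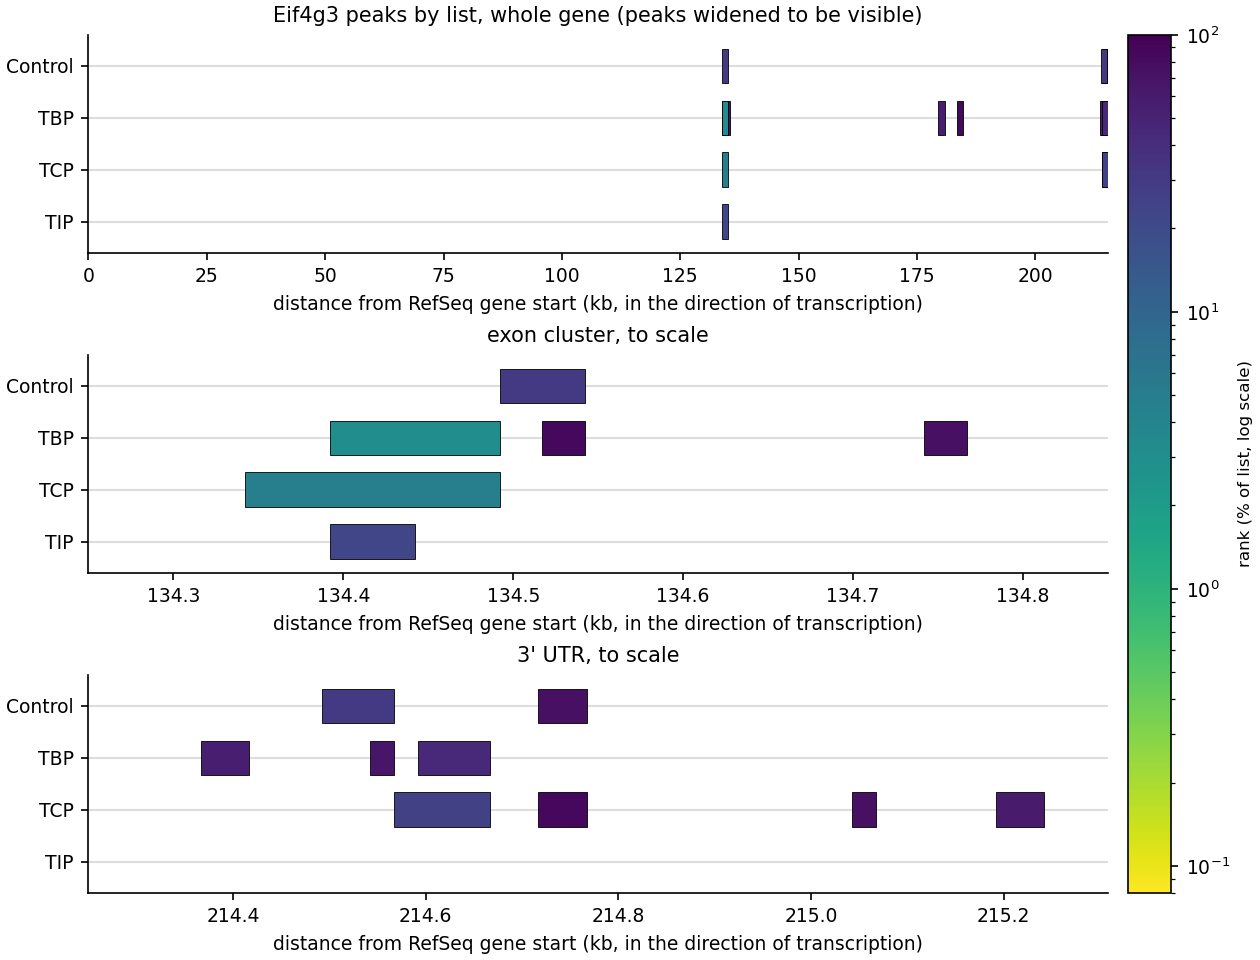
Peaks of Eif4g3 in each list against distance from the RefSeq gene start in kb, coloured by rank as a percentage of list length (log colour scale). The upper panel shows the whole gene, the middle the exon with peaks of all 4 lists and the lower the 3′ UTR, where TIP has 0 peaks.

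Together the peaks of the 3 genes formed 38 sites by overlap, of which 31 were seen in 1 list, 5 in 2 lists, 1 in 3 and 1 in all 4. Of all 11753 sites in the lists, 60.6% were seen in 1 list and 10.6% in all 4. By gene, 17 of 18 sites of Eif4g1, 8 of 9 of Eif4g2 and 6 of 11 of Eif4g3 were seen in a single list. In class, Eif4g1 had 2 peaks annotated to a 5′ UTR, 14 labelled only as exon and 6 annotated to the 3′ UTR. The exon label does not place a peak in coding sequence. The counts were 1, 7 and 2 for Eif4g2 and 0, 8 and 9 for Eif4g3. In the 4 lists between 48.5% and 50.9% of all peaks were annotated to 3′ UTRs.

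The genes most like each member were taken from the numbers of peaks in the 4 lists and the rank of the strongest peak in each, 8 values in all. Nearest to Eif4g1 were Ppp1r15b with 5 control peaks and 4, 7 and 5 with TBP, TCP and TIP, Ywhag with 6, 5, 5 and 5 in the same order, and Kmt2c with 5, 5, 6 and 5. Their distances were 0.373, 0.421 and 0.426. The strongest control peak of Ppp1r15b ranked 113, against 4 for Eif4g1. Nearest to Eif4g2 were Dld with 1, 2, 3 and 4 peaks, Vps33a with 1, 1, 3 and 3, and Taf1d with the same numbers, at distances of 0.817, 0.893 and 0.902. Their strongest TCP peaks ranked 2043, 921 and 575, against 5229 for Eif4g2. Nearest to Eif4g3 were Rif1 with 3, 10, 6 and 1 peaks, Lcor with 3, 7, 4 and 1, and Plcl2 with 2, 6, 5 and 1, at distances of 0.429, 0.515 and 0.603.

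The partners of eIF4G and the other genes of initiation were taken from a list of 59 genes that leaves out the 3 scaffolds. Of these, 32 held at least 1 peak, and 7 were in all 4 lists, beside 29.7% of the 4305 genes. Control had 12 of the 32, TBP 20, TCP 23 and TIP 15. Of the 4305 genes, control had 2473, TBP 3124, TCP 3394 and TIP 1788. Control, TBP and TCP thus held a smaller part of the list genes than of all genes, and TIP a larger part. A gene counts as gained with a compound when only the compound's list of the pair has a peak, and as lost when only control has one. Only a gene without a control peak can be gained, so the smaller control part favours higher gained shares. After TBP 10 of the 22 list genes with a peak in either list were gained, 45.5% (24.4 to 67.8), against 30.4% of all genes, and 2 were lost, 9.09% against 12.0%. After TCP 13 of 25 were gained, 52.0% (31.3 to 72.2), against 34.7%, and 2 were lost, 8.0% against 10.4%. After TIP 7 of 19 were gained, 36.8% (16.3 to 61.6), against 11.8%, and 4 were lost, 21.1% (6.05 to 45.6) against 36.2%. Because the list was chosen with results of these data known, these intervals are no test against the shares over all genes.

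The median difference in peaks over these genes was 1 for TBP, 1 for TCP and 0 for TIP, beside 1, 1 and −1 over all genes. At equal list length 2 of 10 list genes were gained with TBP, 20.0% against 19.0% of all genes. The counts were then 7 of 15 with TCP, 46.7% against 19.8%, and 9 of 17 with TIP, 52.9% against 18.3%. Both counts include Eif2s1 and Eif3h, which had a control peak in the full list. These control peaks, both at rank 3772, fell outside the cut, and that of Eif2s1 had the same borders as its TCP and TIP peaks. The intervals are exact Clopper-Pearson 95% intervals for counting error only, and the list was chosen with results of these data known.

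Of the cap-binding and helicase partners, Eif4e, the cap-binding protein itself, had 0 peaks in control, 1 each with TBP and TCP and 0 with TIP. Its TBP and TCP peaks had the same borders in the 3′ UTR, chromosome 3, 138555485 to 138555559. They ranked 3126 and 3393, and neither was kept at equal list length. Eif4a1 and Eif4a2, the helicases, had no peak in any list. Eif4b, a cofactor of the helicase, had 2 control peaks and 4, 2 and 3 with the compounds, and Eif4h, a related cofactor, had 0, 1, 1 and 1. The Eif4h peaks ranked 5377, 4645 and 2449 in TBP, TCP and TIP, and only that of TIP was kept at equal list length. They shared no base with each other.

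Among the regulators, Eif4ebp2, which competes with eIF4G for eIF4E, had 2 peaks in TBP and 2 in TCP and none in control or TIP. All 4 lay in the 3′ UTR and are named for Nodal in the nearest-gene column. The best ranked 3086 in TBP and 1354 in TCP, and at equal list length none was kept in TBP. Eif4enif1, the eIF4E transporter, had 0, 1, 1 and 1, in the 3′ UTR between 3244019 and 3244118 on chromosome 11. Its TCP peak covered the TBP and the TIP peak, which abutted each other. The Eif4enif1 peaks ranked 4741 in TBP, 1294 in TCP and 890 in TIP. Mknk2, an eIF4E kinase that docks on eIF4G, had 1 peak in TCP only among the 4 lists, at rank 4645. Eif4ebp1, Mknk1 and Pdcd4 had none in any. Pabpc1, the poly(A)-binding protein, had 2 peaks from control and 0 with each compound. The higher of these spanned 2451 bp of genome, was labelled as exon and ranked 129. The other, of 50 bp, ranked 3291.

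Of 13 eIF3 subunit genes, 7 had a peak in any list, beside 32 of the 59 genes of the initiation list. Eif3a, the largest subunit, had 7, 11, 9 and 6 peaks. It was the only 1 of the 13 with peaks in all 4 lists, beside 29.7% of all genes with a peak. Its best ranks were 136, 157, 88 and 17, the last shared by 301 tied TIP peaks. Eif3l had 0, 2, 2 and 1 peaks, and its 3′ UTR peaks in TCP (79094292 to 79094391) and TIP (79094317 to 79094366) on chromosome 15 overlapped. Eif3b had 1, 1, 0 and 0. Eif3c had 1, 2, 2 and 0, Eif3h 1, 0, 1 and 1, Eif3f 0, 0, 0 and 1 and Eif3i 0, 1, 0 and 0. The control peaks of Eif3b, Eif3c and Eif3h each ranked 3772, among 661 peaks tied at the lowest control score. Eif3d, Eif3e, Eif3g, Eif3j1, Eif3k and Eif3m had none.

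Of the factors that act beside eIF4F, Eif5, which promotes GTP hydrolysis by eIF2, had 0, 1, 3 and 1 peaks, all annotated to the 3′ UTR. None of these shared a base with a peak of another list, as was so for 34.4% of all peaks. The best Eif5 ranks were 2528, 2397 and 1373 in TBP, TCP and TIP. Eif5b, which joins the ribosomal subunits, had 3, 2, 3 and 3. Of 5 eIF2B subunit genes, 1 had a peak in any list, Eif2b3 in TCP, beside 32 of the 59 genes of the initiation list. Larp1, which binds mRNAs with a 5′ terminal oligopyrimidine tract, had 3, 4, 6 and 4.

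**Figure D5:**
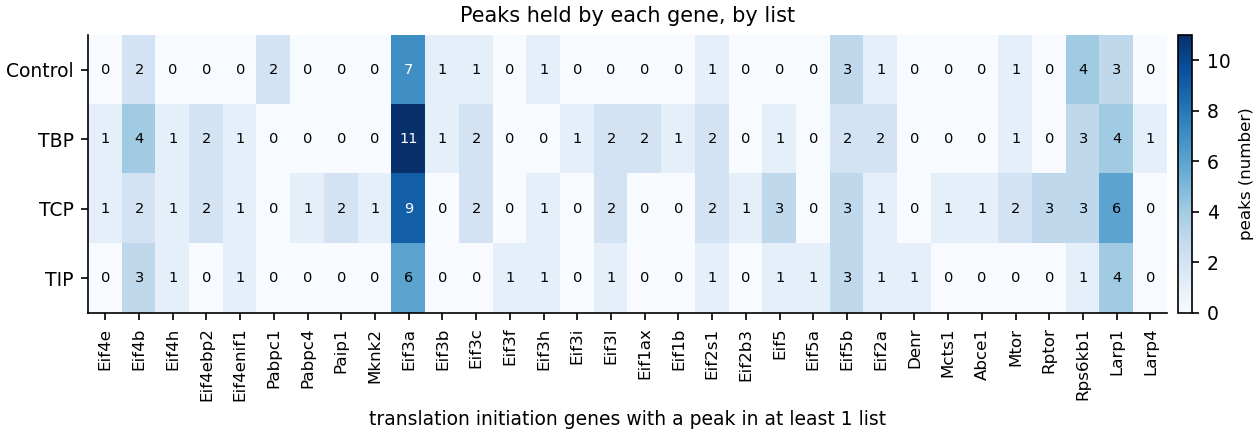
Number of peaks (colour and printed digit) of the 32 translation initiation genes with any peak, by list. Eif3a has the most in every list, with 7, 11, 9 and 6, and Pabpc1 has 2 in control and 0 elsewhere.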

How the data were processed

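The 4 peak lists were used as the authors deposited them, 1 per immunoprecipitated library. Each gives position, strand, annotation class, nearest gene and a score. How the authors computed this score before it was deposited, and on what scale, is not stated per the file headers or labels. The submitters' processing notes list HISAT2 2.1.0, ChIPseeker 1.26 and HOMER 4.11 among their tools, without roles, and GRCm38 and mm10 as builds; no peak caller, threshold or role of the input is given there.

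Peaks were placed in genes in 3 steps: by the exon annotation (45.3% of peaks), then by the nearest gene where it contained the peak on the same strand (37.3%), then by a single RefSeq gene (GRCm38.p6 spans) over the peak (15.9%). The exon step used the annotated gene without a check of strand. Small RNA genes were passed over, and 1.52% of peaks stayed unplaced. Peaks sharing at least 1 bp on 1 strand were merged into sites. Both steps were tested on simulated data. Of the translation list, genes gained or lost with at least 2 compounds and the binding partners of eIF4G are named; the others named were chosen after their values were seen. The members and lists were chosen with earlier results of these data known. Per member the 3 genes with the smallest Euclidean distance over 8 values are named: log2(peaks + 1) and best rank divided by list length, in each list. No genome sequence was used here. Python 3.11.15 and pandas 2.3.3 were used.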

Additional observations from a re-analysis of the deposited data

How the results depend on the processing

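Of 165 values recomputed under alternatives, 119 stayed within 1.5 times the reported count, or within the counting interval of the reported rank, and 46 moved. There is no replicate, so no spread between cultures can be given. No paired analysis was possible because each condition has 1 library. By the nearest-gene column, Eif4g1 had 2 peaks in TBP and 3 in TCP with best ranks of 1698, 4234, 3095 and 834 in control, TBP, TCP and TIP, Eif4g3 had 5 in TBP and 0 in TIP with best ranks of 2789 in TBP and 1774 in TCP, and 4 translation initiation genes were lost in TBP. With only peaks scoring no less than their list's median, Eif4g1 had 1 peak in TBP and 2 in TCP, Eif4g2 had 0 in TCP and 3 in TIP, and Eif4g3 had 2 in TBP and 2 in TCP. Sites then numbered 9, 4 and 4 for Eif4g1, Eif4g2 and Eif4g3, with 2 of Eif4g3 in 2 or more lists. Of the translation initiation genes, 10 then had a peak in TBP and 9 in TIP, 4 of 12 were gained in TBP (33.3%, all genes 34.6%) and 3 of 11 in TIP (27.3%, all genes 14.1%), and 1 of 17 was lost in TCP (5.88%, all genes 11.1%) and 2 of 11 in TIP (18.2%, all genes 39.3%). At equal list length Eif4g1 had 1 peak in TBP and 1 in TCP, Eif4g2 had 0 in TCP, and Eif4g3 had 2 in TBP and 2 in TCP. Then 8 translation initiation genes had a peak in TBP and 13 in TCP, 2 of 10 were gained in TBP (20.0%, all genes 19.0%) and 7 of 15 in TCP (46.7%, all genes 19.8%), and 2 of 17 were lost in TIP (11.8%, all genes 26.5%). Here the removal of low-ranked peaks itself lowers the counts, and a gene that loses its control peak in this way can count as gained. With abutting peaks joined, an alternative added after the data were seen, 4 sites of Eif4g1 and 3 of Eif4g3 lay in 2 or more lists, and 1 of Eif4g3 in every list. With peaks within 100 bp joined, 5 sites of Eif4g1 and 2 of Eif4g3 lay in 2 or more lists, 1 of Eif4g3 lay in every list, and Eif4g3 had 7 sites. Without the TIP list Eif4g2 had 4 sites. Without peaks over 500 bp the best rank of Eif4g2 in TCP was 5111. A minimum overlap of 25 bp moved none of its 9 values.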

Other observations

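The genes with at least 4 more peaks in TIP than in control were 7 of the 2803 with a peak in either list, 0.25%, and Eif4g2 was 1 of them; the limit of 4 was taken from its own value. The others were Ncl, which encodes nucleolin, with 3 peaks in control and 8 in TIP, Tpr, a nuclear pore protein, with 1 and 6, Hnrnpm, a splicing regulator, with 2 and 6, Pura with 3 and 7, Scaf11 with 2 and 6, and Spop, a ubiquitin ligase adaptor, with 1 and 5. In TBP and TCP these genes did not share 1 pattern. Ncl had 4 and 1 peaks, Tpr 3 and 8, and Hnrnpm 2 and 2. Pura had 6 and 4, Scaf11 7 and 8, and Spop 1 and 5.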
